A study of Mus musculus with 6 samples.

Results

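Target clusters of chimeric AGO2 reads that were listed under miRNAs named miR-466, miR-467, miR-669 or miR-297 are described here, apart from those of miR-466i-5p, which was left out by the choice of names. A line of a target list was a member when its miRNA name began with one of these numbers, and each coordinate was counted once. By this rule 593 of 18029 target clusters were members in WT, 539 of 27152 for *Mov10* Deletion replicate 1 and 185 of 12379 in *Mov10* Deletion replicate 2. Over the libraries together, 1268 of 53496 distinct coordinates were members. The rule reads names and no measured value, but the names were picked with earlier results of these data known.

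The study asked how the RNA helicase MOV10 affects AGO2 on brain mRNAs. Chimeric eCLIP, a form of crosslinking and immunoprecipitation (IP) in which the miRNA is ligated to the RNA held by the same AGO2 protein, was carried out on whole brains of C57Bl/6J mice at postnatal day 0 (P0). The groups were WT (1 library) and *Mov10* Deletion (2 libraries), and each IP had an input library. *Mov10* Deletion mice carry a *Mov10* allele floxed at exons 6 and 7 that *Emx1*-Cre recombines in excitatory neurons of the forebrain, crossed to a *Mov10* heterozygous mutant, whereas the libraries were made from whole brain, where other cells keep the floxed allele intact. Fewer cells of a type and less RNA per cell cannot be told apart in such libraries. For *Mov10* Deletion mice the paper reports a large reduction of MOV10 protein in P0 brain lysates. The labels do not say whether the *Mov10* Deletion libraries came from separate litters.

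AGO2 holds a miRNA as a guide, and bases 2 to 8 of the miRNA, the seed, pair with complementary letters in a target RNA. In rodents, an intron of *Sfmbt2*, a Polycomb group gene, carries a large cluster of related miRNA genes named miR-297, miR-466, miR-467 and miR-669, and further copies lie elsewhere in the genome. Their hairpins are built from alternating purine and pyrimidine repeats, so that one arm is rich in CA and the other in UG.

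The mature sequences show this family feature. RefSeq (GRCm38.p6, the assembly of mm10) gave a mature sequence for 5 of the 36 member names, which together had 17 of the 1322 member lines. They are printed 5′ to 3′ with the seed in capitals.
miR-466i-3p: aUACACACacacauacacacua
miR-467g: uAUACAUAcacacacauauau
miR-466q: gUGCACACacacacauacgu
miR-467f: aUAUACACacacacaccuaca
miR-669n: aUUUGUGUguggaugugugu
The first 4 are CA-rich, each with at least 2 copies of ACAC and none of GUGU, and miR-669n is UG-rich, with 2 copies of GUGU and none of ACAC. All 5 seeds differed, so no seed was shared within this set. The copies in RefSeq lie on chromosomes 13 (miR-466i-3p, chr13:17747552-17747573), 5 (miR-467g, chr5:34732872-34732892), 3 (miR-466q, chr3:28419988-28420007, and miR-669n, chr3:115979905-115979924) and 11 (miR-467f, chr11:69635419-69635439). None of them lies on chromosome 2, where *Sfmbt2* is (chr2:10370440-10595253), so these copies are not in its intron. No target cluster of any miRNA was listed in *Sfmbt2* itself.

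Member miRNAs took a larger share of the target list in WT than in either *Mov10* Deletion library. The share was 3.29% in WT (exact Clopper-Pearson 95% interval 3.03 to 3.56), against 1.99% (1.82 to 2.16) for replicate 1 and 1.49% (1.29 to 1.72) for replicate 2 of *Mov10* Deletion. The intervals cover counting error only, no 2 of them overlap, and the *Mov10* Deletion libraries differed from each other as well. With 1 WT library the genotypes could not be compared by a test. miR-466i-5p, the related name that was left out, had 913, 1673 and 794 coordinates in the same order. Its share was lowest in WT, at 5.06%, 6.16% and 6.41% of all target clusters. The share of miR-124-3p was highest in WT, at 51.65%, 39.15% and 40.08%. A higher share in WT is therefore not particular to the members. Total read depth is unknown, and no listed cluster scores below 3.

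**Figure D1:**
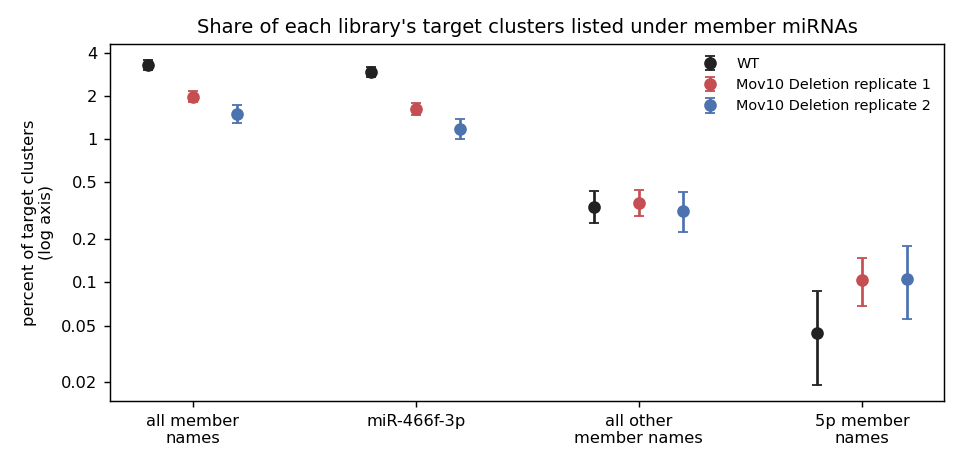
Percent of each library's distinct target clusters (log axis) listed under all member names, miR-466f-3p, the other member names and 5p member names. Points are single libraries and bars are exact 95% intervals for counting error. WT stands highest for all members (3.29%) and for miR-466f-3p (2.95%), whereas the other names lie between 0.315% and 0.361% in every library.

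A single miRNA, miR-466f-3p, gave most of these clusters. It was listed on 532 coordinates in WT, 441 for *Mov10* Deletion replicate 1 and 146 for replicate 2, which is 2.95% (2.71 to 3.21), 1.62% (1.48 to 1.78) and 1.18% (0.997 to 1.39) of each list. All other member names together took 0.338% (0.259 to 0.434), 0.361% (0.293 to 0.440) and 0.315% (0.224 to 0.430), and these intervals overlapped. The order between libraries was therefore that of miR-466f-3p and was not seen in the rest of the members.

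Most of the 36 names were rare. miR-466h-3p followed with 20, 22 and 5 lines in WT and *Mov10* Deletion replicates 1 and 2, miR-669o-3p with 5, 16 and 3, and miR-466e-3p with 8, 7 and 2. Next came miR-466g with 3, 4 and 1 lines, miR-467d-3p with 3, 2 and 3, and miR-669f-3p with 3, 5 and 0. miR-466i-3p had 1, 3 and 3, miR-467a-5p had 0, 5 and 2, and miR-297a-5p had 1, 4 and 1. Of the 36 names, 12 were listed in every library, 13 in 1 library only, and 8 had 1 line in total. Such small numbers do not order the libraries.

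By name, 13 of the members were 3p arms, 17 were 5p arms and 6 named no arm. The 3p names had 580, 504 and 168 lines in WT and *Mov10* Deletion replicates 1 and 2, the 5p names had 8, 28 and 13, and the names without an arm had 8, 9 and 4. The share of the target list under 5p members was 0.0444% in WT (0.0192 to 0.0874), 0.103% in replicate 1 (0.0685 to 0.149) and 0.105% in replicate 2 (0.0559 to 0.180). The direction for 5p was the reverse of that for 3p, although the 5p intervals of WT and both *Mov10* Deletion libraries overlapped. By subfamily, miR-466 names had 568, 488 and 165 lines, miR-669 names 17, 39 and 9, miR-467 names 9, 9 and 8, and miR-297 names 2, 5 and 3.

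Most genes with a miR-466f-3p cluster near their end carried a CA repeat there. For this comparison the last 1000 nt of the canonical transcript (GENCODE vM39, GRCm39) were searched on the sense strand for CACACACA and for TGTGTGTG, in protein-coding genes whose cluster lay within 1000 nt of the gene end in mm10. Of all 19126 protein-coding genes with such a sequence, 7.60% held CACACACA and 10.6% held TGTGTGTG. CACACACA occurred in 15 of 18 genes with a terminal miR-466f-3p cluster in WT (83.3%, 95% interval 58.6 to 96.4), in 13 of 17 for *Mov10* Deletion replicate 1 (76.5%, 50.1 to 93.2) and in 5 of 5 for replicate 2 (100%, 47.8 to 100). Among genes with a terminal cluster of any non-member miRNA the shares were 8.52%, 8.51% and 8.72%. TGTGTGTG occurred in 3 of the 18 genes in WT, 2 of 17 in replicate 1 and 0 of 5 in replicate 2 (16.7%, 11.8% and 0%), against 14.3%, 13.5% and 13.1% for the non-member miRNAs. The CA repeat has the letters of the CA-rich miRNAs printed above, not those of the complement of their seeds, such as GUGUGUA for miR-466i-3p. The mature sequence of miR-466f-3p itself was not available, so the repeat could not be compared with its own letters or seed.

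The excluded miR-466i-5p gave the opposite pattern. Its terminal genes held TGTGTGTG in 33 of 46 cases in WT, 29 of 46 for *Mov10* Deletion replicate 1 and 13 of 25 for replicate 2 (71.7%, 63.0% and 52.0%), and CACACACA in 4.35%, 8.70% and 12%. For miR-124-3p, the most frequent miRNA of the lists, the shares were between 12.4% and 12.9% for TGTGTGTG and between 8.11% and 8.62% for CACACACA. The 3p members other than miR-466f-3p had terminal clusters in 3, 4 and 1 genes with a sequence, of which 1, 3 and 1 held TGTGTGTG and 1, 0 and 0 held CACACACA. In a window of 3000 nt, chosen after seeing the data, miR-466f-3p genes held CACACACA in 89.2%, 91.2% and 90.0% of cases, against 20.3%, 19.5% and 20.4% for the non-member miRNAs. There they also held TGTGTGTG more often, in 48.6%, 66.7% and 50% against 28.9%, 27.8% and 29.5%. The matches describe letters in the window and are not evidence of pairing. The part that letters shared by a miRNA and a repeat play in the assignment of chimeric reads was not tested.

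**Figure D2:**
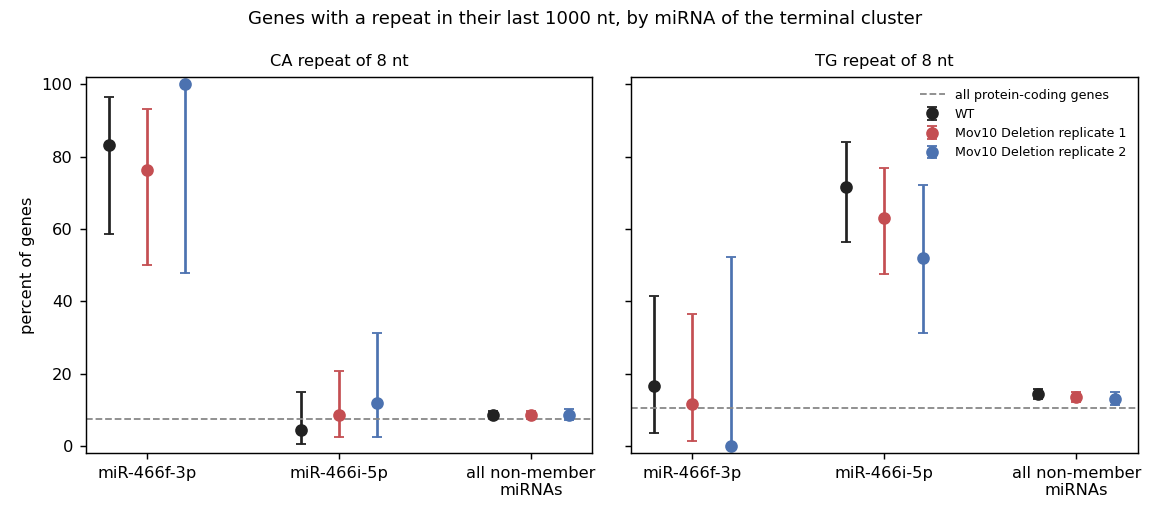
Percent of genes whose last 1000 nt hold a CA repeat (left) or a TG repeat (right) of 8 nt, for genes with a terminal cluster of miR-466f-3p, of miR-466i-5p or of any non-member miRNA, which includes miR-466i-5p. Points are libraries, bars are exact 95% intervals and the dashed line is all protein-coding genes. In this window miR-466f-3p genes stand high for the CA repeat (76.5% to 100%) and miR-466i-5p genes for the TG repeat (52.0% to 71.7%).

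Most of the repeats lay at the clusters and not only in the same window. Positions were compared by counting back from the annotated end, of the mm10 gene for the cluster and of the GRCm39 transcript for the repeat, with no conversion between builds. Of 20 pairs of a miR-466f-3p cluster and such a gene in WT, 16 had a run of alternating C and A of at least 8 nt to compare. The longest run overlapped the cluster in 14 of these 16. In *Mov10* Deletion replicate 1, 14 of 19 pairs had a run, which overlapped the cluster in 11. In replicate 2 all 5 pairs had one, which overlapped in 4. In the window of 3000 nt the overlap was found for 26 of 40, 45 of 62 and 7 of 10 pairs with a run. In the last 1000 nt the run lay wholly inside the cluster in 8, 6 and 2 pairs. For the excluded miR-466i-5p, the longest TG run there overlapped the cluster in 22 of 34, 20 of 33 and 7 of 14 pairs. An overlap is therefore not particular to miR-466f-3p, and it was not counted for the other non-member miRNAs. The miR-466f-3p runs in the last 1000 nt were long, with a median of 31.5 nt in WT (8 to 48), 31.5 nt in replicate 1 (8 to 51) and 27 nt in replicate 2 (9 to 44). The first 5 of the following sequences are shown because their runs overlap the cluster, and *Gatc* and *Vsnl1* because theirs do not, each on the sense strand with the alternating C and A in capitals and cut at 30 nt.
Iglon5: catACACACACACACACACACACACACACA
L1cam: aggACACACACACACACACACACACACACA
Slc6a6: acaACACACACACACACACACACACACACA
Ski: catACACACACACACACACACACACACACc
Zfp46: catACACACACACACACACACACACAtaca
Gatc: tatACACACACAaatcagttttggggggga
Vsnl1: gccCACACACAgcttgtattatcagtgaat
*L1cam* encodes a neural adhesion molecule, and its WT cluster (chrX:73854281-73854406, mm10) spanned 629 to 504 nt before the gene end while its 44-nt run spanned 592 to 549 nt before the transcript end. In *Slc6a6*, the taurine transporter gene, the WT cluster spanned 353 to 267 nt and the 29-nt run 305 to 277 nt before the end. *Gatc* and *Vsnl1* were the exceptions among WT clusters with a run in the last 1000 nt, with short runs of 9 and 8 nt that lay outside the cluster. *Vsnl1* encodes the calcium sensor visinin-like 1.

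**Figure D3:**
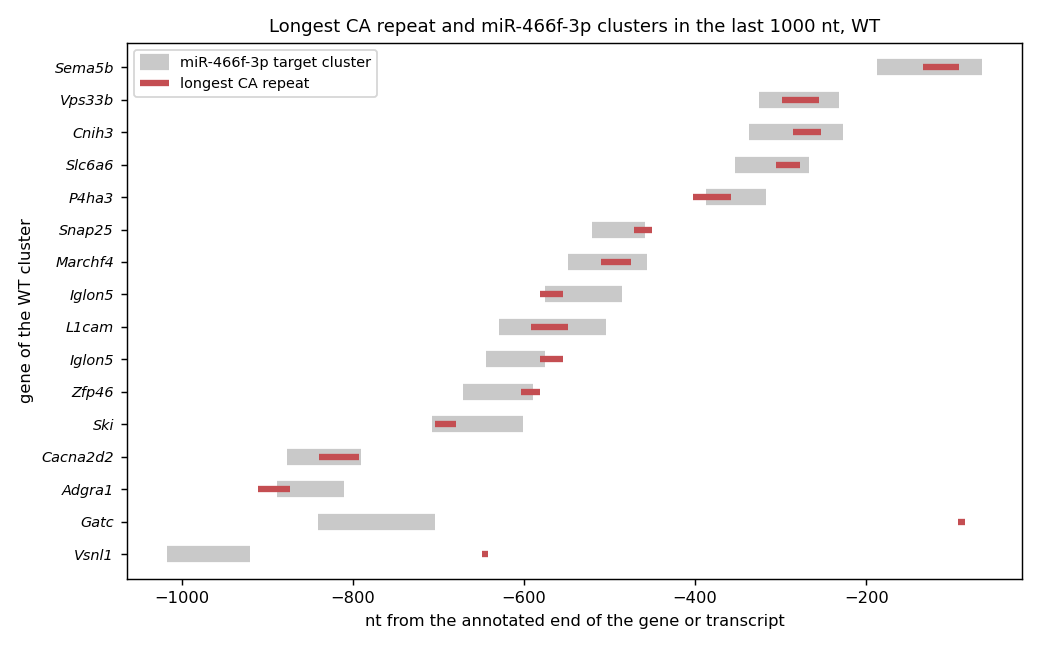
Position of the WT miR-466f-3p target clusters with a run to compare (grey) and of the longest run of alternating C and A (red) in the last 1000 nt of the gene, in nt before the annotated end. Of 20 pairs of cluster and gene, the 16 with a run are shown. The red run overlaps the grey cluster in 14 of the 16 rows, the exceptions being *Gatc* and *Vsnl1*.

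A TG repeat was read directly from mm10 for another member. The WT cluster of miR-669o-3p at chr11:113134176-113134279 overlapped by 97 nt, in sense, the RefSeq promoter window of *Gm39467*, and lay within *LOC115487747*. The 30 nt at its 5′ end on the minus strand (chr11:113134250-113134279) were as follows, with the TG repeats in capitals.
Gm39467: TGTGTGTGTGaatgtgtatgctTGTGTGTG
The overlapped part held 13 overlapping copies of TGTG and none of CACA. Its score was 4.50, and it lay on no AGO2 cluster.

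Member clusters were found inside long genes and away from gene ends. A sense gene held 96.1%, 96.5% and 96.8% of member clusters in WT and *Mov10* Deletion replicates 1 and 2. Of these, 76.5% (95% interval 72.8 to 79.9), 73.8% (69.8 to 77.6) and 74.9% (67.8 to 81.0) lay in a gene over 100 kb, against 42.3%, 49.9% and 47.1% of the other target clusters. The median length of the gene holding a member was 279756 nt, 302586 nt and 257590 nt, against 77004.5 nt, 99382 nt and 91289 nt for the rest. Members lay about midway along the gene, at median relative positions of 0.495, 0.533 and 0.504 from start (0) to end (1), whereas the rest lay nearer the end at 0.787, 0.707 and 0.720. The excluded miR-466i-5p was placed in much the same way, with 63.1%, 70.5% and 69.0% of its clusters in genes over 100 kb and median relative positions of 0.526, 0.490 and 0.514, so these positions are not particular to the members. Members and rest were separated in the same direction in 3 of 3 libraries for each of these measures. The exact two-sided sign-flip permutation test over libraries gave p = 0.25, the smallest value that 3 libraries allow, so that 0.05 could not be reached. The *Mov10* Deletion libraries share called positions, so the 3 libraries are not fully independent units in this or the later tests.

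The last 1000 nt of a gene held 28 of 593 member clusters in WT (4.72%, 95% interval 3.16 to 6.75), 34 of 539 for *Mov10* Deletion replicate 1 (6.31%, 4.41 to 8.70) and 9 of 185 for replicate 2 (4.86%, 2.25 to 9.03). The other target clusters lay there in 18.3%, 13.6% and 14.8% of cases, and no interval of members and rest overlapped. The difference was a mean of -10.3 percentage points and was lower in 3 of 3 libraries (exact sign-flip permutation test, p = 0.25). It was lower in 3 of 3 libraries in genes over 100 kb as well, with 2.06%, 1.56% and 1.49% of members against 7.57%, 5.05% and 5.52%. In shorter genes the values were 14.2%, 20.6% and 15.6% against 27.0%, 22.6% and 23.7%, where the interval of *Mov10* Deletion replicate 1 (14.1 to 28.4) and that of replicate 2 (6.49 to 29.5) held the value of the rest. Without miR-466f-3p the shares were 11.5% (4.74 to 22.2), 10.2% (5 to 18) and 7.69% (1.62 to 20.9), intervals that hold the values of the rest, and the mean difference was -5.77 points. For miR-466i-5p they were 8.02%, 4.68% and 5.05%. Introns and exons were not separated.

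**Figure D4:**
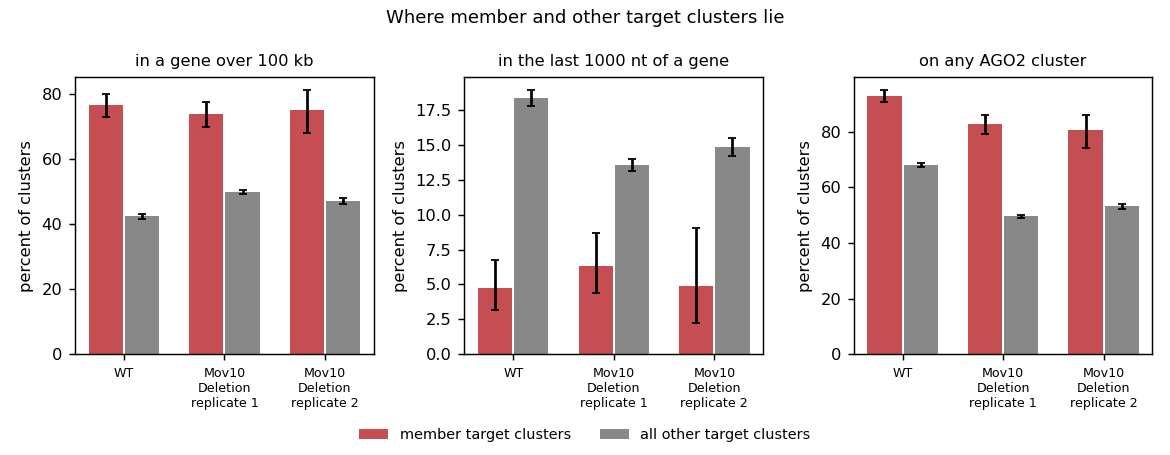
Percent of member clusters (red) and of all other target clusters (grey) in a gene over 100 kb, in the last 1000 nt of a gene, and on an AGO2 cluster of the same library. Bars start at 0 and error bars are exact 95% intervals. In each library members are higher in the first and last panels and lower in the middle one.

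AGO2 clusters, called by the authors from the reads that are not chimeric, overlapped most members. An AGO2 cluster of the same library lay on the same strand of 551 of 593 member clusters in WT (92.9%, 95% interval 90.5 to 94.8), 446 of 539 for *Mov10* Deletion replicate 1 (82.7%, 79.3 to 85.8) and 149 of 185 for replicate 2 (80.5%, 74.1 to 86.0). For the rest it was 68.0%, 49.6% and 53.2%, a mean difference of 28.5 percentage points with members higher in 3 of 3 libraries (exact sign-flip permutation test, p = 0.25). The excess was that of miR-466f-3p, with 95.3%, 90.0% and 89.0%, whereas the other member names stood at 72.1%, 50% and 48.7% and differed from the rest by a mean of 0.0145 percentage points. Yet, among target clusters that lay on one, the AGO2 cluster with the greatest overlap was less enriched over input under members. Its median log2 IP over input was 1.44, 0.62 and 1.1 for members and 1.96, 1.89 and 1.88 for the rest, lower in 3 of 3 libraries. Target clusters on no AGO2 cluster have no such value and are a larger part of the rest, so the medians have unequal bases. The excluded miR-466i-5p was low as well, at 0.83, 0.80 and 0.84, so a low value is not particular to the members.

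An AGO2 cluster is called enriched here when both its log2 IP over input and its −log10 p reach 3. In WT 22.4% of members lay on one (133 clusters, 95% interval 19.1 to 26.0), with 15% of all target clusters as background. In *Mov10* Deletion replicate 1 it was 11.5% (62 clusters, 8.93 to 14.5) with a background of 11.7%, and in replicate 2 it was 11.4% (21 clusters, 7.17 to 16.8) with a background of 12%. Members stood above the rest in WT by 7.64 percentage points and differed by -0.18 and -0.64 in the *Mov10* Deletion libraries, so the direction was not shared (exact sign-flip permutation test, p = 1.0). Without miR-466f-3p the shares were 14.8%, 7.14% and 5.13%, and the mean difference turned to -3.81 points. The call also depended on the threshold, since the mean excess was 9.40 points at a log2 of at least 2 and 4.44 points at a −log10 p of at least 5, with members higher in 3 of 3 libraries in both cases (exact sign-flip permutation test, p = 0.25). Outside the last 1000 nt of genes, members were higher in 3 of 3 libraries, with 23.0%, 12.1% and 11.9% against 12.3%, 9.49% and 9.72%.

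The share of members on enriched clusters differed with the library whose AGO2 clusters were used. The WT members lay on an enriched AGO2 cluster of *Mov10* Deletion replicate 1 in 13.5% of cases (95% interval 10.8 to 16.5), where the background of all WT target clusters was 18.3%, and of replicate 2 in 11.6% (9.17 to 14.5), where it was 14%. In turn, 16.0% of the members of *Mov10* Deletion replicate 1 (13.0 to 19.3) lay on an enriched WT cluster against a background of 9.24%, and 17.8% of those of replicate 2 (12.6 to 24.1) against 12.2%. The members of replicate 1 lay on an enriched cluster of replicate 2 in 9.46% of cases (7.13 to 12.3; background 8.74%), and those of replicate 2 on one of replicate 1 in 10.3% (6.30 to 15.6; background 14.9%). Of the 133 WT members on an enriched WT cluster, 48 also lay on enriched clusters of both *Mov10* Deletion libraries (36.1%, 27.9 to 44.9), against 47.6% of all WT target clusters on an enriched WT cluster. The same count gave 31 of 62 members of replicate 1 (50%, 37.0 to 63.0) against 37.9% of all its clusters. For replicate 2 it gave 12 of 21 (57.1%, 34.0 to 78.2) against 55.3%, so the direction was not shared.

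Around 1 in 3 members of a *Mov10* Deletion library overlapped a WT member. An overlap of at least 1 nt on the same strand was found for 33.6% of the members of replicate 1 (95% interval 29.6 to 37.7) and 34.6% of those of replicate 2 (27.8 to 41.9). In the other direction, 30.2% of WT members (26.5 to 34.1) were overlapped by a member of replicate 1 and 11.6% (9.17 to 14.5) by one of replicate 2. Other target clusters overlapped one another, whatever the name, in 27.5% (replicate 1 on WT), 34.9% (replicate 2 on WT), 40.5% (WT on replicate 1) and 24.2% (WT on replicate 2) of cases. Members were thus above these in replicate 1, near them in replicate 2 and below them in WT, although members had fewer clusters to meet. With any name counted for members too, the shares were 37.7%, 40.5%, 35.6% and 16.7% in the same order. On that count members were above the rest in both *Mov10* Deletion libraries and still below in WT. For replicate 2 the 95% interval of members held the value of the rest. Between the *Mov10* Deletion libraries, 49 members were shared as members, 9.09% of replicate 1 and 26.5% of replicate 2. Of the other target clusters, 15% and 32.8% were shared, whatever the name. With any name counted for members too, their shares were 13.2% and 31.4%, and both 95% intervals held the value of the rest. All 49 members shared as members had identical coordinates, whereas no WT member was identical to one of either. Positions and widths in the *Mov10* Deletion libraries are therefore not independent of each other. WT members overlapped in both other libraries numbered 48 (8.09%). All of these WT clusters were miR-466f-3p clusters.

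Among genes, 399 held a member in WT, 378 for *Mov10* Deletion replicate 1 and 148 for replicate 2, which is 6.24%, 4.87% and 2.73% of the genes with any target cluster in that library. Together they made 646 genes, and 59 held members in all libraries. WT and replicate 1 had 194 genes in common (48.6% of WT, 51.3% of replicate 1), WT and replicate 2 had 77 (19.3% and 52.0%), and the *Mov10* Deletion libraries had 67 (17.7% and 45.3%). In WT only there were 187 genes, and 8 were found in both *Mov10* Deletion libraries but were missing from WT. These are 46.9% of the 399 WT genes and 11.9% of the 67 genes of both *Mov10* Deletion libraries. Over all genes with any target cluster, which are longer lists, the same shares were 11.6% (740 of 6390) and 14.2% (629 of 4421). Genes with clusters under 3p names in every library numbered 57, and no gene had 5p clusters in all 3.

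The 12 genes that ranked first by their lowest score over the libraries included synaptic, adhesion and signalling genes. The deposited score is not described by the authors, so it is given for single clusters only. *Snap25*, which encodes a SNARE protein of synaptic vesicle fusion, led with highest scores of 44.1 in WT, 22.0 for *Mov10* Deletion replicate 1 and 13.7 in replicate 2. The clusters lay at chr2:136781248-136781329 in WT and chr2:136781243-136781331 in both *Mov10* Deletion libraries, 1099 nt before the gene end in WT. AGO2 itself was not enriched there, where the log2 IP over input was -0.09, 0.05 and -0.24. In *Ncam1*, the neural cell adhesion molecule gene, adjoining clusters lay from 3119 nt before the gene end in WT, and the highest score belonged to the one nearest the end (chr9:49505248-49505306 in WT and chr9:49505248-49505308 in *Mov10* Deletion), with highest scores of 43.9, 9.96 and 14.1. The log2 IP over input was again low, at 0.31, -0.07 and -0.57.

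*Vangl2*, a planar cell polarity gene, stood apart from these by its AGO2 enrichment. Its WT cluster at chr1:172003754-172003853 had a score of 33.1 and lay on an AGO2 cluster whose log2 was 3.43, with a −log10 p at the upper limit of the deposited values, 400. In *Mov10* Deletion the cluster chr1:172003750-172003820 had scores of 7.89 and 6, with a log2 of 2.67 and 2.99 and a −log10 p of 77.6 and 47.3. In WT it was above the enrichment threshold and in the *Mov10* Deletion libraries just below it.

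*Kirrel3*, which encodes an adhesion protein of the immunoglobulin superfamily, had its highest scores deep inside the gene, 378154 nt before its end in WT. They were 26.0 in WT (chr9:34662579-34662653), 36.8 for *Mov10* Deletion replicate 1 and 10.3 in replicate 2 (both chr9:34662570-34662706), with a log2 of 2.58, 2.38 and 2.38. *Nrxn3*, a presynaptic neurexin gene, had scores of 17.6, 15.3 and 8.86. *Iglon5*, an adhesion gene of the IgLON group, was the only 1 of the 12 with its best cluster in the last 1000 nt, with scores of 14.6, 8.59 and 6.

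The remaining genes of the 12 had their best clusters over 100 kb from the gene end. Scores were 9.23, 8.54 and 6.95 in *Sgcd*, the delta-sarcoglycan gene, where every member cluster of the 3 libraries lay on an enriched AGO2 cluster (log2 between 3.16 and 4.28). They were 8.99, 7.21 and 6.85 in *Trio*, a guanine nucleotide exchange factor gene, 15.2, 9.76 and 6.12 in *Spock1*, a testican proteoglycan gene, and 7.85, 7 and 9 in *Cdh13*, the T-cadherin gene. *Frmd4a*, a FERM domain gene, had 11.7, 17.0 and 7, and *Rbfox1*, a splicing regulator gene, had 8.30, 11.7 and 6. Of the 12 genes, 8 had the highest score in WT, 3 for *Mov10* Deletion replicate 1 and 1 for replicate 2. All of their best clusters were listed under miR-466f-3p.

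**Figure D5:**
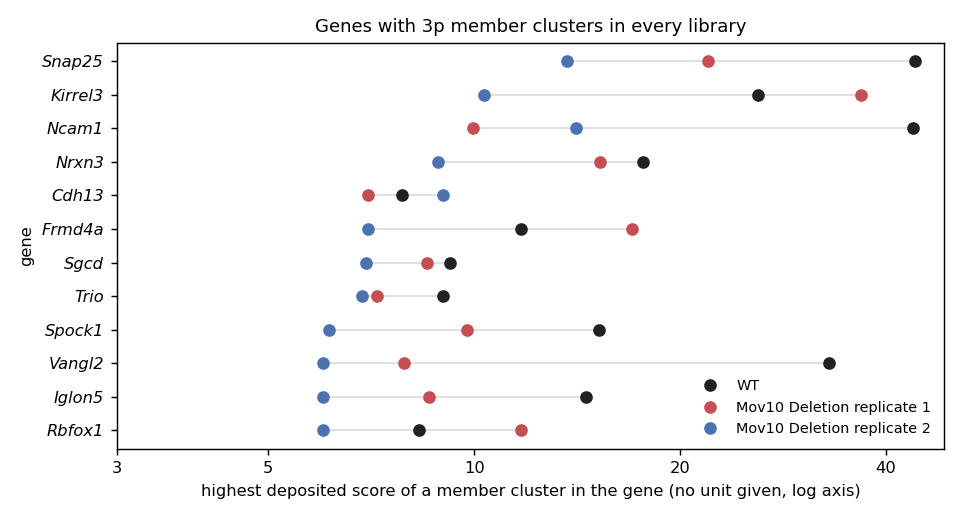
Highest deposited score of a member cluster (log axis, no unit given by the authors) in the 12 genes ranked first among those with 3p clusters in every library. Points are single libraries. *Snap25* (44.1), *Ncam1* (43.9) and *Vangl2* (33.1) have the highest WT points, and replicate 2 is lowest in most rows.

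Several genes held a series of members along their length. *Nrxn3* had 9, 8 and 2 member clusters in WT and *Mov10* Deletion replicates 1 and 2, of 53, 105 and 46 target clusters of all miRNAs in the gene. *Kirrel3* had 9 of 37, 5 of 48 and 3 of 23. In *Rbfox1* it was 8 of 66, 6 of 145 and 2 of 75. The share of a gene's target clusters that were members was highest in WT for each of these 3 genes. That is also the order of the whole target lists, where members made 3.29%, 1.99% and 1.49%. *Nlgn1*, a postsynaptic neuroligin gene, went the other way, with 2 of 30 in WT, 8 of 53 in replicate 1 and 0 of 16 in replicate 2. These genes were picked for their number of clusters, and their lengths run from 554955 nt (*Kirrel3*) to 1612235 nt (*Nrxn3*).

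Among the listed gene sets, members were found mainly in synaptic adhesion and channel genes. Of 20 such genes 11 held a member in WT, 10 for *Mov10* Deletion replicate 1 and 6 for replicate 2, and 5 of them held one in every library, *Nrxn3*, *Ncam1*, *Cadm2* and *Dlg2* among them. *Cadm2*, an adhesion gene, had 3, 4 and 3 clusters with highest scores of 8.73, 9.98 and 5.70. *Dlg2*, a postsynaptic scaffold gene, had 2, 3 and 1, with scores of 6.55, 6.42 and 4.37. All 20 genes had some target cluster in every library. The 4 genes named are long, from 297265 nt (*Ncam1*) to 1973059 nt (*Dlg2*), and the part of gene length in this count was not tested. Of 20 cortical and neural transcription factor genes, 5, 4 and 1 held a member. *Sox5* alone did so in every library, with 4, 4 and 2 clusters and scores of 5.80, 11.8 and 4.90, and *Bcl11b* had 2 clusters in WT and 2 in replicate 1 (scores 11.7 and 7.54). Of 20 microtubule genes *Map2* alone held members, 3 in WT and 2 in replicate 1 (scores 6.62 and 4.93). None of the 17 miRNA machinery genes, *Mov10* and the Argonaute genes among them, held a member in any library, and 16, 16 and 13 of them held other target clusters. Over all genes with any target cluster, 6.24%, 4.87% and 2.73% held a member. At such shares a set of 17 or 20 genes holds few, so the low counts for microtubule and miRNA machinery genes are near this background.

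Genes with members in WT only were led by *Lrrc4b*, which encodes a synaptic adhesion protein, with a score of 21.0 at chr7:44448607-44448687. *LOC115487747* followed with 12.3, *Snx29*, a sorting nexin gene, with 11.9, *Bckdhb*, which encodes a subunit of the branched-chain keto acid dehydrogenase, with 10.6, and *Sema5b*, a semaphorin gene, with 10.6. *Bckdhb* lay on an enriched AGO2 cluster (chr9:83939180-83939244, log2 4.34, −log10 p 10.3). The *Sema5b* cluster (chr16:35664075-35664197) ended 64 nt before the gene end and held a CA run of 43 nt by the count described above.

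Only 8 genes held members in each *Mov10* Deletion library while WT listed none. The first 5 by their lower score were *Bcl9l*, a Wnt co-activator gene (6 and 5 in replicates 1 and 2), *Pcnx2*, a pecanex gene (4 and 8), *Grip1*, a glutamate receptor scaffold gene (3.96 and 7), *Ncald*, the neurocalcin delta gene (4.90 and 3.81), and *Gnao1*, which encodes a G protein alpha subunit (14.0 and 3.78). In *Bcl9l* and *Pcnx2* the cluster was the same in both libraries. In *Grip1*, *Ncald* and *Gnao1* the libraries had clusters at different positions, listed under miR-466f-3p in replicate 1 and miR-466d-3p in replicate 2 for *Ncald*. Lists that start at a score of 3 do not show whether weaker clusters were present in WT.

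The widths of members did not separate them from other target clusters. The median width was 77 nt (quartiles 63 and 98) in WT, 67 nt (53 and 85.5) for *Mov10* Deletion replicate 1 and 68 nt (54 and 85) for replicate 2, against 78, 65 and 68 nt for the rest (exact sign-flip permutation test over libraries, p = 1.0). AGO2 clusters likewise had a median width of 69 nt in WT and 55 nt in both *Mov10* Deletion libraries, which share their positions. The 5p members had median widths of 89.5, 63.5 and 57 nt and the 3p members 77, 68 and 70 nt, without a common direction. Fewer 5p members lay on an AGO2 cluster, 5 of 8, 10 of 28 and 6 of 13.

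Most members were listed under 1 miRNA, 536 of 593 coordinates in WT, 486 of 539 for *Mov10* Deletion replicate 1 and 177 of 185 for replicate 2. Several names stood on 9.61%, 9.83% and 4.32% of members and on 12.3%, 7.29% and 5.16% of the rest. Co-listing of member names with each other was rare, at 3, 2 and 0 coordinates. They were miR-466f-3p with miR-466g in *Best1*, miR-669h-3p with miR-669i at adjoining clusters in *Grk3* (chr5:112927256-112927347 and chr5:112927348-112927414), miR-466f-3p with miR-466h-3p in *Rbfox1*, and miR-466f-3p with miR-466i-3p in *Polb* (chr8:22633064-22633138, score 21.0). No coordinate carried both a 3p and a 5p member name.

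In WT the names found most with members were miR-124-3p at 23 coordinates, miR-466i-5p at 15 and let-7b-5p at 11. miR-124-3p stood at 3.88% of WT members against 51.7% of all WT target clusters, and let-7b-5p at 1.85% against 2.30%. miR-466i-5p stood at 2.53% of WT members and at 5.06% of all WT target clusters, and in *Mov10* Deletion replicates 1 and 2 at 7 (1.30% against 6.16%) and 2 (1.08% against 6.41%). The longest co-listings were on ribosomal RNA in *Mov10* Deletion replicate 1. A cluster in the mitochondrial gene *mt-Rnr2* carried 23 names, miR-669c-5p among them, and 3 clusters in *Rn18s-rs5* carried 14, 12 and 8 names, miR-466f-3p among them. The most names at a member were 6 in WT and 3 in replicate 2.

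The clusters were spread over the chromosomes, with the highest member share on chromosome 8. It held 51 members in WT (8.60%, 95% interval 6.47 to 11.2), 52 for *Mov10* Deletion replicate 1 (9.65%, 7.29 to 12.5) and 17 for replicate 2 (9.19%, 5.44 to 14.3), against 5.16%, 5.17% and 5.07% of the rest. This chromosome was picked after its values were seen, so no test is given. Of these, 12, 8 and 4 lay outside the genes that had a known strand here. All of them were under miR-466f-3p on the minus strand between chr8:9369544 and chr8:9762744, a local group found in every library. Whether a gene left out for want of a strand covers this group was not tested. In genes alone the share was 6.84% (4.91 to 9.23), 8.46% (6.22 to 11.2) and 7.26% (3.92 to 12.1), against 4.99%, 4.94% and 4.86% of the rest, and the WT and replicate 2 intervals held the value of the rest. The members in genes were spread over 26, 28 and 10 genes, led by *Nrg1*, the neuregulin 1 gene, with 6, 5 and 0 clusters, and *Crtc1*, a CREB co-activator gene, with 4, 2 and 2. Without miR-466f-3p the share on chromosome 8 was 1.64%, 5.10% and 5.13%.

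The tissue and the targeted gene were checked on the AGO2 clusters. Over 7 neuron marker genes there were 626 AGO2 clusters for WT, 1208 for replicate 1 and 1209 for replicate 2 of *Mov10* Deletion, whereas 3 liver markers held 1, 3 and 3. *Rbfox3* alone held 296, 681 and 681 of the neuron clusters, and the counts were not scaled to gene length. In the same order, 4 progenitor markers held 37, 61 and 61, and 3 oligodendrocyte lineage markers 13, 39 and 39. For 3 microglia markers it was 7, 18 and 18, and for 2 endothelium markers 17, 16 and 16. *Mov10* had 11 AGO2 clusters in WT, 1 of them enriched, and 9 in each *Mov10* Deletion library with none enriched, a count of AGO2 binding that does not measure the deletion. AGO2 clusters numbered 359172, 616014 and 616005.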

How the data were processed

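AGO2 chimeric eCLIP was performed on P0 whole brain, with 1 WT and 2 *Mov10* Deletion IP libraries, grouped by the GEO labels. The submitters' processing notes name UMI-tools 1.1.1, cutadapt 3.2, STAR 2.7.7a, Bowtie 1.2.3 and mm10. Reads on repeats and rRNA were removed, the rest mapped to mm10, PCR duplicates collapsed by molecular identifier and AGO2 clusters called with CLIPper. Chimeric reads were sought among reads that mapped to neither, by matching miRBase miRNAs and then mapping the remainder to mm10. The authors deposited AGO2 clusters with a −log10 p (limit 400) and a log2 fold of IP over input, and target clusters with a miRNA name and a score of at least 3; what the score measures is not given in the sources used here. Input libraries enter through that fold only, and read totals are unknown.

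Member names and gene lists were chosen with earlier results of these data known. Each coordinate was counted once, and overlaps needed 1 nt on the same strand. The AGO2 log2 of a target cluster is that of the AGO2 cluster with the largest overlap. Gene positions and strands came from RefSeq (GRCm38.p6), and from GENCODE by symbol where RefSeq gave no strand. Of 49997 genes, 4721 had no strand from either and were left out of all counts in genes. Shares have exact Clopper-Pearson 95% intervals, and members were compared with the rest by an exact two-sided sign-flip permutation test over 3 libraries. The test takes the libraries as independent, although the *Mov10* Deletion libraries share called positions. Genotypes were not tested against each other. Named genes were the 12 with the highest lowest score among those with 3p clusters in every library (none qualified for 5p), the first 5 in WT only, the first 5 in both *Mov10* Deletion libraries only, and listed gene sets. Named miRNAs were the 10 with most lines. Alternatives covered scores, thresholds, overlap, gene class and left-out libraries. Scripts (Python 3.11.15, numpy 2.4.6, pandas 2.3.3, scipy 1.17.1) were tested on simulated data. Values of 1 listed gene are not reported here.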

Additional observations from a re-analysis of the deposited data

How the results depend on the processing

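Of 103 alternative values for 40 results, 4 reversed and 25 moved, and the other 74 kept their direction and side of the threshold or stayed within the spread, though some changed in size. The mean excess on any AGO2 cluster fell to 0.0145 points without miR-466f-3p, that on enriched clusters was 9.40 points at a log2 of at least 2, and the mean terminal difference was -20.6 points at 3000 nt and -4.34 points in genes over 100 kb. The WT median width of 5p members was 146 nt at a score of at least 4. The member share was 2.7% (WT) and 1.77% (*Mov10* Deletion replicate 1) with every line counted, and 2.98% and 1.80% for coordinates under member names alone. At a score of at least 4, the 3p share was 99.2% and 95.6% in the same libraries, genes with a member numbered 236 and 81 in *Mov10* Deletion replicates 1 and 2, genes with members in all libraries numbered 34, and transcription factor genes with one numbered 3. At a log2 of at least 2, 37.1%, 23.7% and 23.8% of members lay on an enriched AGO2 cluster, and the last 3000 nt held 10.1%, 12.2% and 9.73%. Identical coordinates gave an overlap of 0% between WT and either *Mov10* Deletion library, and an overlap of at least 50% of both clusters gave 22.4% and 8.26% of WT members (with replicates 1 and 2), 24.7% of replicate 1 and 26.5% of replicate 2. Leaving out a *Mov10* Deletion library gave 77 to 194 genes in all remaining libraries, 194 being without replicate 2.

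The mean excess on enriched AGO2 clusters reversed to -3.81 points without miR-466f-3p (exact permutation p = 0.25), an alternative chosen after seeing the data, as were the splits by gene length and by the last 1000 nt and the 3000 nt repeat window. The mean width difference (0.333 nt) reversed to -2.67 nt at a score of at least 4 and -0.833 nt for member names alone, and ran from -0.5 to 0.5 nt with a *Mov10* Deletion library left out. The causes were not tested. No paired analysis was possible because WT had 1 library, so the groups shared fewer than 2 replicate numbers.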
